A study of Mus musculus with 12 samples.

Results

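Gene expression was compared between ovaries of newborn mice that lacked Lhx8 and ovaries of newborn wild-type mice. The samples were chosen by their titles: the 3 arrays of Lhx8 KO animals and the 3 arrays of wild-type animals at postnatal day 0 (P0), 6 of the 12 samples of the series, and only these 6 were scaled together. The KO animals were Lhx8 knockouts, with an allele that the labels do not describe further, and the others were wild type; all came from a mixed background of 129, C57BL/6 and SF1. The protocols give 3 animals per genotype as biological replicates, which reads as the ovaries of 1 animal on each array. The labels give the tissue as oocytes, whereas the protocols describe whole ovaries, and markers of follicle support cells (Amhr2), blood vessels (Pecam1) and blood (Hba-a1) were all measured above background.

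Lhx8 encodes a LIM homeodomain transcription factor that in the mouse ovary is found in oocytes. LIM homeodomain proteins bind DNA through the homeodomain and act with cofactors of the LDB and LMO families. Around birth, the germ cell nests of the mouse ovary break down into primordial follicles, each a single oocyte arrested in meiosis within a layer of flat granulosa cells. The proteins that an oocyte stores for the embryo, its zona pellucida coat and its secreted growth factors are made from a set of genes under the control of a few regulators, among them Lhx8, Figla, Nobox, Sohlh1 and Sohlh2.

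Values are z scores, centred on 0 and scaled by the SD of the probes on each array, so all differences are in z units, KO minus wild type, each ± its SE in limma (n = 3 animals per genotype). They are not fold changes, since the scale under the scores is unknown. Rose, fell and changed are used for genes with a limma adjusted p under 0.05. Along the first principal component (61.2% of the variance) the KO arrays (14.0 to 20.3) lay apart from the wild-type arrays (−21.2 to −12.1). Arrays of 1 genotype correlated with r between 0.974 and 0.982, and arrays of different genotypes with r between 0.930 and 0.960. Named probes above background made up 33.7% ± 1.72 (SD) of all named probes in KO and 39.2% ± 1.73 in wild type. Precision is limited by the small number of arrays.

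Lhx8 itself was measured first, as a check of the labels. Its score was 0.12, 0.03 and 0.09 in the 3 KO ovaries, against 0.74, 1.04 and 1.58 in the 3 wild-type ovaries. The genotypes did not overlap, and the difference was −1.04 ± 0.18 (limma adjusted p = 0.00466). Within its array the probe stood between percentiles 73.9 and 76.4 in KO and between 85.7 and 92.3 in wild type, and it was above background on every array. A single probe reports Lhx8, and the sources used here do not say whether it lies inside or outside the deletion.

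Of the 9246 genes tested, 1414 changed between KO and wild-type newborn ovaries, which is 15.3% of them. In KO 603 were higher (6.52%) and 811 were lower (8.77%). The falls reached much further than the rises: among the genes that changed, 26 were higher and 109 were lower by more than 1 z unit, and 2 were higher and 16 lower by more than 2. For 3511 genes (38.0% of those tested) all KO scores lay on the same side of all wild-type scores, and the median difference over all genes was 0.03. The balance of the directions depended on the scaling: rises made up 42.6% of the calls after quantile normalization, 28.8% on the values as deposited and 19% after median scaling, where the median of all genes tested was −0.04 and −0.09. Among the called genes, 184 that fell were not above background on any KO array and 9 that rose were not above it on any wild-type array. Scores below background do not measure a level, so the sizes of these differences are uncertain. Where such a gene is named, a bound against background, smaller in size than the difference, is given if there is one. A gene could pass the filter on dim probes through the genotype in which it is high, so counts over the members of a list that were tested describe those members alone. The gene lists were written with earlier results of these data known. Their shares called, set beside that of all genes, are therefore descriptions and not tests.

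**Figure D1:**
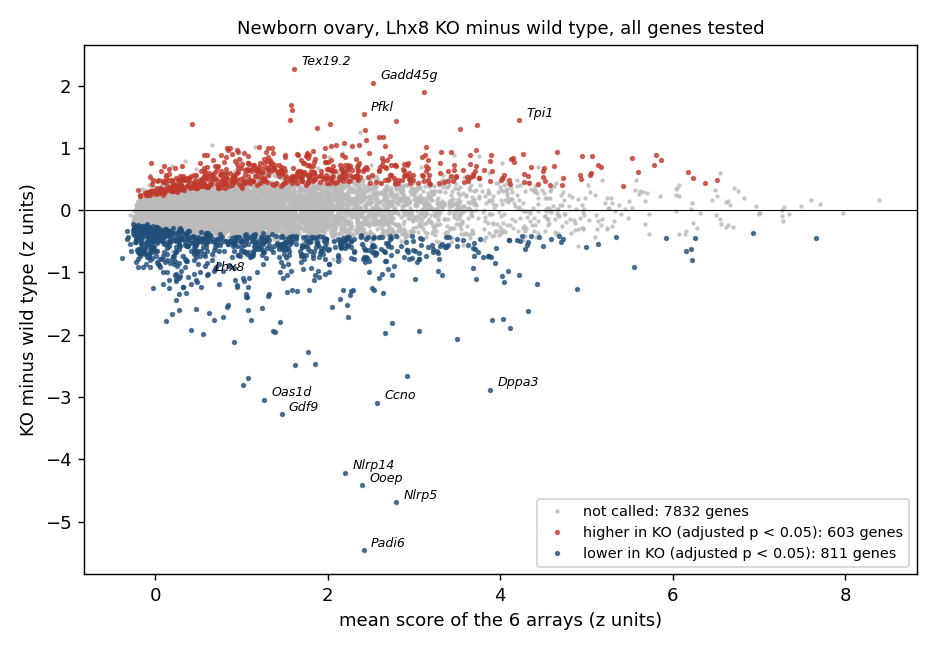
Difference between genotypes (vertical axis, KO minus wild type, z units) against the mean score of the 6 arrays (horizontal axis, z units) for the 9246 genes tested; each point is a gene. Padi6 has the lowest point at −5.46 and Tex19.2 the highest at 2.27, and many more genes lie beyond 1 z unit on the lower side (109) than on the upper side (26).

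The largest falls were in genes of the subcortical maternal complex and the cytoplasmic lattices, protein stores beneath the oocyte surface that the early embryo uses. Padi6, a peptidylarginine deiminase needed for the lattices, had scores of −0.23, −0.29 and −0.40 in KO, against 4.46, 6.08 and 4.92 in wild type. No KO array showed Padi6 above background, and the difference of −5.46 ± 0.32 is given as a bound of −5.24 against background (limma adjusted p = 3.34e-05). Nlrp5, a core protein of the complex also called MATER, had 0.08, −0.08 and 1.34 in KO, against 4.40, 5.72 and 5.30 in wild type (−4.69 ± 0.38, adjusted p = 8.22e-05). KO replicate 3 kept the most Nlrp5 of the KO animals and still lay far below every wild-type animal. Ooep, which binds Nlrp5 in the complex, had −0.13, 0.24 and 0.46 in KO, against 3.47, 5.99 and 4.38 in wild type (−4.42 ± 0.48, adjusted p = 0.000384). Nlrp14, a relative of Nlrp5 that mouse eggs need for early cleavage, had 0.01, 0.05 and 0.23 in KO, against 3.53, 5.40 and 4.0 in wild type (−4.22 ± 0.37, adjusted p = 0.000116). Tle6, another member of the complex, remained well above background in KO: it had 3.43, 3.48 and 3.50 there, against 4.26, 4.97 and 4.66 in wild type (−1.16 ± 0.17, adjusted p = 0.00207). Khdc3 (−1.14 ± 0.18, bound −0.91, adjusted p = 0.00273) completed the 6 members tested of 14 with a named probe. All 6 fell, beside 8.77% of all genes, with a median of −4.32, and 2 of the 6 were below background in KO. These are the members seen above background, some in wild type alone: without the filter the 14 members had a median of −0.09, and 6 were lower.

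Genes of the zona pellucida and of oocyte secretion fell too. Gdf9, the oocyte growth factor that follicles need to grow beyond the primary stage, had −0.09, −0.32 and −0.12 in KO, against 2.54, 3.87 and 2.91 in wild type (−3.28 ± 0.27, limma adjusted p = 8.27e-05). Zp3, a structural protein of the zona and the sperm receptor of mouse eggs, had −0.44, −0.48 and −0.23 in KO, against 1.78, 3.44 and 2.06 in wild type (−2.81 ± 0.34, bound −2.52, adjusted p = 0.000635). In both genes wild-type replicate 2 was the highest animal, and no KO animal came near the lowest wild-type one. Zp1, which cross-links zona filaments, differed by −1.45 ± 0.27 (bound −1.05), and Bmp15, the partner of Gdf9, by −0.63 ± 0.09 (bound −0.37), from a wild-type mean of only 0.27 ± 0.15 (SD). The egg genes Omt2a (−1.33 ± 0.17, bound −1.11) and Omt2b (−1.16 ± 0.16) and the oocyte-secreted protein gene Oosp1 (−0.47 ± 0.07, at background) were lower as well. All 7 members tested of 12 with a named probe fell, beside 8.77% of all genes, with a median of −1.33, or −1.11 with bounds. Of these, 5 were below background in every KO animal, and without the filter the 12 members had a median of −0.55, with 8 lower.

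Upstream sequences of Padi6, Ooep and Zp3 are shown because these genes had some of the largest falls and because the oocyte regulators bind near start sites; capitals mark matches to the E-box (CANNTG) or to 1 of 4 homeodomain words (TAATTG as the first, TAGTTG as the second, TAATTA as the next and TGATTG as the last), on either strand. Each is the 250 bases before the RefSeq start on GRCm38.p6.
Padi6, chr4:140742644-140742893, minus strand: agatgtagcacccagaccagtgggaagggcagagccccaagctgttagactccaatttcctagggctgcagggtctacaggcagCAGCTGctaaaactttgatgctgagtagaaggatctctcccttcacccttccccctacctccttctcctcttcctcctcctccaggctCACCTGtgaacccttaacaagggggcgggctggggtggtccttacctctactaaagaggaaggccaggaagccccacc
Ooep, chr9:78378589-78378838, minus strand: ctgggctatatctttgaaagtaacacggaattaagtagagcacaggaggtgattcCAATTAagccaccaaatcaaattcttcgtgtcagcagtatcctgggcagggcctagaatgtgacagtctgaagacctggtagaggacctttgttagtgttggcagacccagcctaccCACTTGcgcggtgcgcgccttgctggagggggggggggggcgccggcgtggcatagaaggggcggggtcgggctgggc
Zp3, chr5:135979855-135980104, plus strand: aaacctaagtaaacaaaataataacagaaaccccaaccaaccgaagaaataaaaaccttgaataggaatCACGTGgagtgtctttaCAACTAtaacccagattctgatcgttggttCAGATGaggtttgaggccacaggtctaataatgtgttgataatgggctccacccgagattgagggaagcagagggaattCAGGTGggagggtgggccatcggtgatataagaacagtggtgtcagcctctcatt
The stretch of Padi6 held 2 E-boxes, that of Ooep 1 E-box and 1 homeodomain word (CAATTA, the reverse complement of TAATTG), and that of Zp3 3 E-boxes and 1 homeodomain word (CAACTA, the reverse complement of TAGTTG). The 300-base window of Padi6, which runs past the start, also held a homeodomain word (TAATTG or its reverse complement). Windows of 300 bases, which run 50 bases past the start, were in the RefSeq promoter set used here for 14 of the 20 genes with the largest falls. These had 23 windows, since a gene can have several starts, and 19 of the 20 genes with the largest rises also had 23 windows. An E-box was in 91.3% of the windows of the falls and 87.0% of those of the rises, beside 72.3% of all 32851 windows. TAATTG was in 13.0% and 0.0%, beside 8.0% of those 32851 windows, and TAGTTG in 8.7% and 8.7%, beside 6.59%. TAATTA was in 4.35% and 0.0%, beside 5.29%, and TGATTG in 13.0% and 21.7%, beside 14.0%. These shares are descriptions of letters in windows, with overlapping motifs each counted and several windows from the same genes, and no test was made.

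Regulators of the oocyte program changed unevenly. Figla, the helix-loop-helix factor that switches on the zona genes in mice, had 1.39, 1.68 and 1.53 in KO, against 2.62, 2.41 and 3.44 in wild type (−1.29 ± 0.23, limma adjusted p = 0.00548). Nobox, a homeodomain factor that acts with Lhx8, was near background in both genotypes: it had −0.23, −0.51 and −0.27 in KO, against 0.03, 0.05 and −0.11 in wild type (−0.32 ± 0.09, bound −0.08, adjusted p = 0.0326). The Nobox call was lost on leaving out KO replicate 2 (adjusted p = 0.0835) or wild-type replicate 1 (0.0802), 2 (0.113) or 3 (0.0515). Sohlh1, a helix-loop-helix factor upstream of Lhx8 in mice, had 4.65, 4.90 and 5.07 in KO, against 4.83, 5.43 and 5.68 in wild type, and the genotypes overlapped (−0.43 ± 0.20, adjusted p = 0.161). Its partner Sohlh2 differed by −0.04 ± 0.08 (adjusted p = 0.774), but was near background in both genotypes (means −0.02 in KO and 0.02 in wild type), where a change could be missed. Pou5f1, the pluripotency factor that oocytes keep, had 0.05, −0.23 and 0.02 in KO, against 0.58, 0.92 and 0.76 in wild type (−0.81 ± 0.12, adjusted p = 0.00225). Stat3 (−1.04 ± 0.22) and Dynll1, a dynein light chain (−1.10 ± 0.13), also fell. Of 12 genes tested in the list of oocyte transcription regulators, which also holds Dynll1, 7 fell and none rose. That is 58.3% called, beside 15.3% of all genes, with a median of −0.43. In 2 of the 12 no KO array was above background. Without the filter the 18 members with a named probe had a median of −0.27, and 7 were lower.

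Lhx8 has relatives and cofactors in the ovary that can be set beside it. Of 8 LIM factors and cofactors tested, Lhx8 was the 1 that fell and 4 rose, with a median of 0.35. That is 62.5% called, beside 15.3% of all genes. Ldb1, the scaffold on which LIM proteins assemble, had 3.89, 4.18 and 4.0 in KO, against 3.57, 3.29 and 3.31 in wild type (0.63 ± 0.13, limma adjusted p = 0.012). Its paralog Ldb2 was higher too (0.71 ± 0.17), as were Lmo4 (0.75 ± 0.17) and Lmo2 (0.41 ± 0.11), which are adaptors made of LIM domains. Without wild-type replicate 2 none of the 4 rises kept its call (Ldb1 adjusted p = 0.0552), and the values as deposited kept 2 of them. The other probes of Lmo4 (0.12) and Ldb2 (0.32) were not called. Lhx9 (0.21 ± 0.10, adjusted p = 0.184), Ssbp2 (−0.13 ± 0.15) and Ssbp3 (0.29 ± 0.17), the last 2 being partners of LDB proteins, were not called. Lmo4 is also on the chromosome of Lhx8, and of the 27 tested genes nearest to Lhx8 in RefSeq order, up to 20 on each side, 3 rose and 2 fell (18.5% called, beside 15.3% of all genes).

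**Figure D2:**
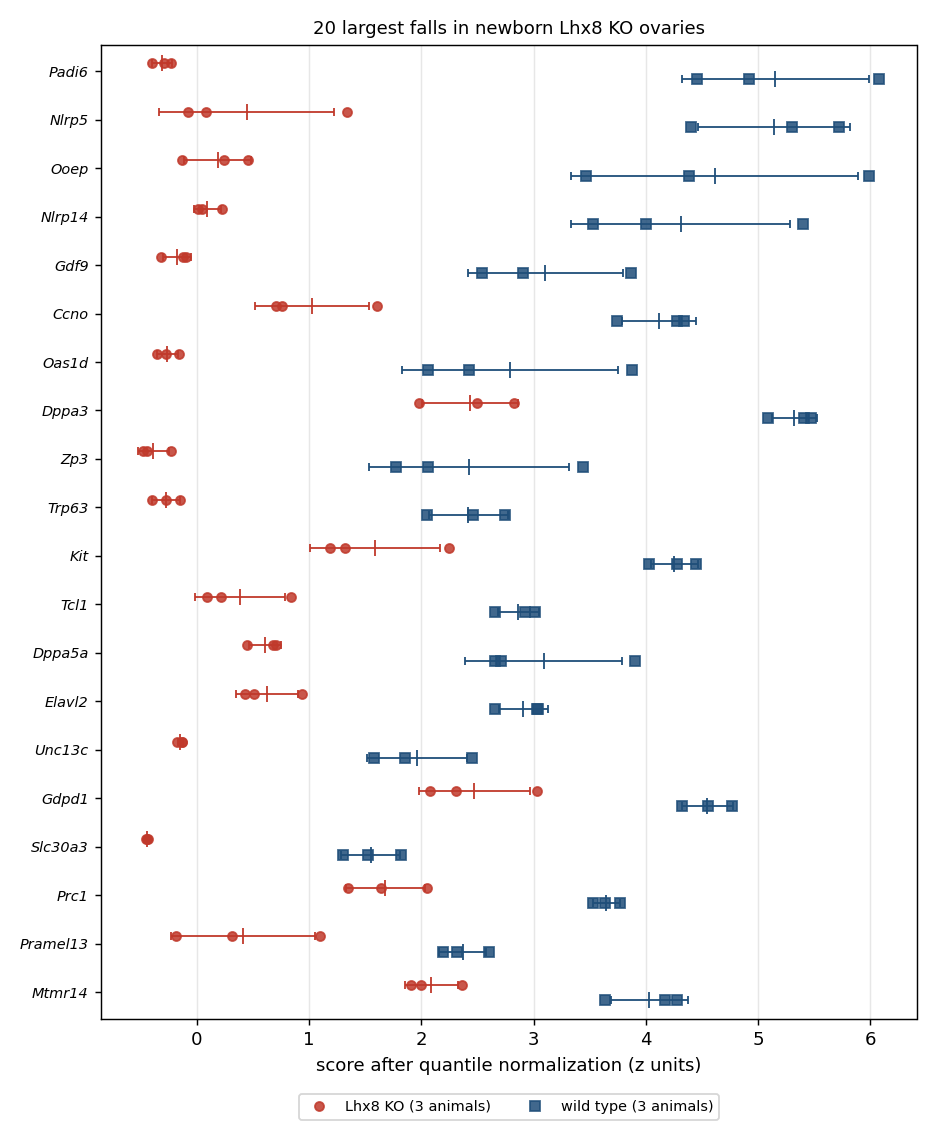
Scores after quantile normalization (z units) of the 20 genes with the largest falls, from Padi6 at the top to Mtmr14 at the bottom; red circles are the 3 KO animals, blue squares the 3 wild-type animals, and bars show mean ± SD. The 20 genes were chosen among those in which every KO animal lies below every wild-type animal, so this separation is a condition of the choice. Separation in either direction was seen in 38.0% of all genes tested. Padi6, Oas1d, Zp3, Trp63, Unc13c and Slc30a3 are at background in KO.

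Genes for the storage and control of RNA in oocytes followed. Elavl2, an RNA-binding protein of neurons and oocytes, had 0.43, 0.51 and 0.94 in KO, against 2.66, 3.03 and 3.04 in wild type (−2.28 ± 0.17, limma adjusted p = 5.33e-05). Ybx2, which coats and stabilises stored messenger RNA in germ cells, had 1.87, 1.87 and 2.18 in KO, against 2.97, 3.30 and 3.64 in wild type (−1.33 ± 0.18, adjusted p = 0.00117). Cpeb1, a regulator of the poly(A) tails of stored messages, had −0.16, 0.03 and −0.06 in KO, against 0.99, 0.87 and 1.02 in wild type (−1.02 ± 0.10, adjusted p = 0.000221). All of these separated the genotypes by more than the spread between animals. Lsm14b, a component of oocyte ribonucleoprotein particles, fell as well (−1.04 ± 0.15). Dazl, a translational regulator of germ cells, was in the same list and went the other way: it had 2.78, 2.62 and 3.35 in KO, against 2.18, 2.28 and 2.35 in wild type (0.65 ± 0.18, adjusted p = 0.0364). The Dazl call was lost on the deposited values (adjusted p = 0.0528) and in most fits that left out 1 animal (up to 0.102, without wild-type replicate 2). Ddx4, the RNA helicase used as a general germ cell marker, had 0.14, 0.47 and 0.42 in KO, against 0.12, 0.14 and 0.11 in wild type (0.22 ± 0.10, adjusted p = 0.163), and its other probe differed by 0.01. Of 17 RNA-binding protein genes tested, 6 fell and 2 rose (47.1% called, beside 15.3% of all genes), with a median of −0.27. In whole ovaries, fewer oocytes and less RNA per oocyte cannot be told apart.

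Several falls were in genes shared with primordial germ cells or needed to keep oocytes alive. Dppa3, also called Stella, a maternal factor that guards DNA methylation in the zygote, had 2.50, 1.98 and 2.83 in KO, against 5.09, 5.47 and 5.41 in wild type (−2.89 ± 0.20, limma adjusted p = 4.1e-05). Kit, the oocyte receptor for KIT ligand made by granulosa cells, had 1.19, 1.32 and 2.25 in KO, against 4.03, 4.28 and 4.45 in wild type (−2.67 ± 0.25, adjusted p = 0.000155). Both genes stayed above background in every KO animal, unlike Zp3 or Padi6. Trp63, the p53 relative that removes oocytes with DNA damage, had −0.27, −0.15 and −0.40 in KO, against 2.05, 2.75 and 2.46 in wild type (−2.69 ± 0.17, bound −2.51, adjusted p = 3.34e-05). Tcl1, a coactivator of AKT kinase that eggs store, differed by −2.48 ± 0.19, and Dppa5a, an RNA-binding protein of pluripotent cells, by −2.47 ± 0.28. Bcl2l10, a BCL2 family gene abundant in oocytes, fell by 0.76 ± 0.10 (bound −0.40), and it was the 1 fall among 23 BCL2 family and death receptor genes, of which 3 rose. Those 3 were Bbc3, whose product PUMA acts in oocyte death (0.56 ± 0.12), Tnfrsf10b (0.51 ± 0.15) and Bok (0.45 ± 0.13). None of these rises kept its call in all other settings, and the other probes of Bbc3 (0.10) and Bok (−0.18) were not called. The share of the 23 genes called (17.4%) was near that of all genes (15.3%). Of the 15 primordial germ cell and pluripotency genes tested 7 fell and 2 rose (60% called, beside 15.3% of all genes), with a median of 0.04.

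Genes of meiotic arrest, division and chromatin fell in smaller number. Ccno, an atypical cyclin found in mouse oocytes, had 0.76, 0.71 and 1.61 in KO, against 3.74, 4.28 and 4.34 in wild type (−3.09 ± 0.24, limma adjusted p = 7.19e-05). Mos, the kinase that holds eggs in metaphase, was near background in wild type (−0.16, 0.09 and 0.06) and above it in no KO animal (−0.77 ± 0.08, bound −0.09). Prc1, which bundles the microtubules of the central spindle, had 1.35, 1.64 and 2.05 in KO, against 3.53, 3.64 and 3.77 in wild type (−1.97 ± 0.17, adjusted p = 0.000116). Kdm1b, the histone demethylase that oocytes need to set maternal imprints, had 1.45, 1.43 and 2.63 in KO, against 3.40, 3.68 and 3.88 in wild type (−1.82 ± 0.28, adjusted p = 0.0029). KO replicate 3 was again the KO animal nearest to wild type. Other Kdm1b probes differed by −0.58 (adjusted p = 0.00365) and by −0.24 (adjusted p = 0.102, not called), so the size of this fall depended on the probe. The oocyte linker histone H1f8 (−0.99 ± 0.10, bound −0.68), the nucleoplasmin Npm2 (−0.69 ± 0.08, bound −0.25) and Uhrf1, which brings DNA methyltransferase to replicated DNA (−0.74 ± 0.15, lost without wild-type replicate 2), fell, whereas H3f3b, a gene of the replacement histone H3.3, rose (0.80 ± 0.12). Dnmt1, the maintenance methyltransferase, was not called (−0.16 ± 0.16, adjusted p = 0.506). In all, 4 of 14 arrest and cell cycle genes and 6 of 26 chromatin genes fell, and 1 chromatin gene rose. The shares called were 28.6% and 26.9%, beside 15.3% of all genes.

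Among membrane and signalling genes, Gja4, which forms the gap junctions between oocyte and granulosa cells, had 0.34, 0.15 and 0.67 in KO, against 1.72, 1.79 and 1.66 in wild type (−1.34 ± 0.14, limma adjusted p = 0.000383). Slc30a3, a zinc transporter, had −0.43, −0.45 and −0.44 in KO, against 1.30, 1.82 and 1.53 in wild type (−1.99 ± 0.13, bound −1.64, adjusted p = 3.82e-05), and Slc6a9, the glycine transporter that mouse oocytes and embryos use to control their volume, fell by 1.37 ± 0.20. They led 4 falls among 16 ion channel, transporter and zinc genes (37.5% called, beside 15.3% of all genes, median 0.07). Of the 16, 2 rose, Mt1, a metallothionein, by the most (0.94 ± 0.22). No gene of this list rose without KO replicate 3 or without wild-type replicate 2, where Mt1 had an adjusted p of 0.0559 and 0.0722. Mtmr14, a phosphoinositide phosphatase, had 2.0, 1.91 and 2.36 in KO, against 3.64, 4.28 and 4.17 in wild type (−1.94 ± 0.19, adjusted p = 0.00019), and its 4 other probes fell too (−1.90 to −1.09). Gdpd1, a glycerophosphodiester phosphodiesterase (−2.07 ± 0.22), Unc13c, a vesicle priming protein best known from synapses (−2.11 ± 0.19, bound −2.06), Oas1d, an oligoadenylate synthetase relative of mouse oocytes (−3.05 ± 0.36, bound −2.88), and Pramel13, of the PRAME-like family (−1.96 ± 0.26), were the other genes among the 20 largest falls. The F-box genes Fbxw18 (−1.23 ± 0.14, bound −1.03) and Fbxw26 (−1.10 ± 0.22, bound −0.89) were the largest of 5 falls, beside 1 rise, among 11 oocyte ubiquitin ligase genes. That is 54.5% called, beside 15.3% of all genes, and in 3 of the 11 no KO array was above background. The median was −0.65, or −0.15 over the 24 members without the filter, of which 9 were lower and 1 higher. Whether probes of close relatives, such as Fbxw18 and Fbxw26 or Omt2a and Omt2b, also capture each other's RNA was not tested.

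**Figure D3:**
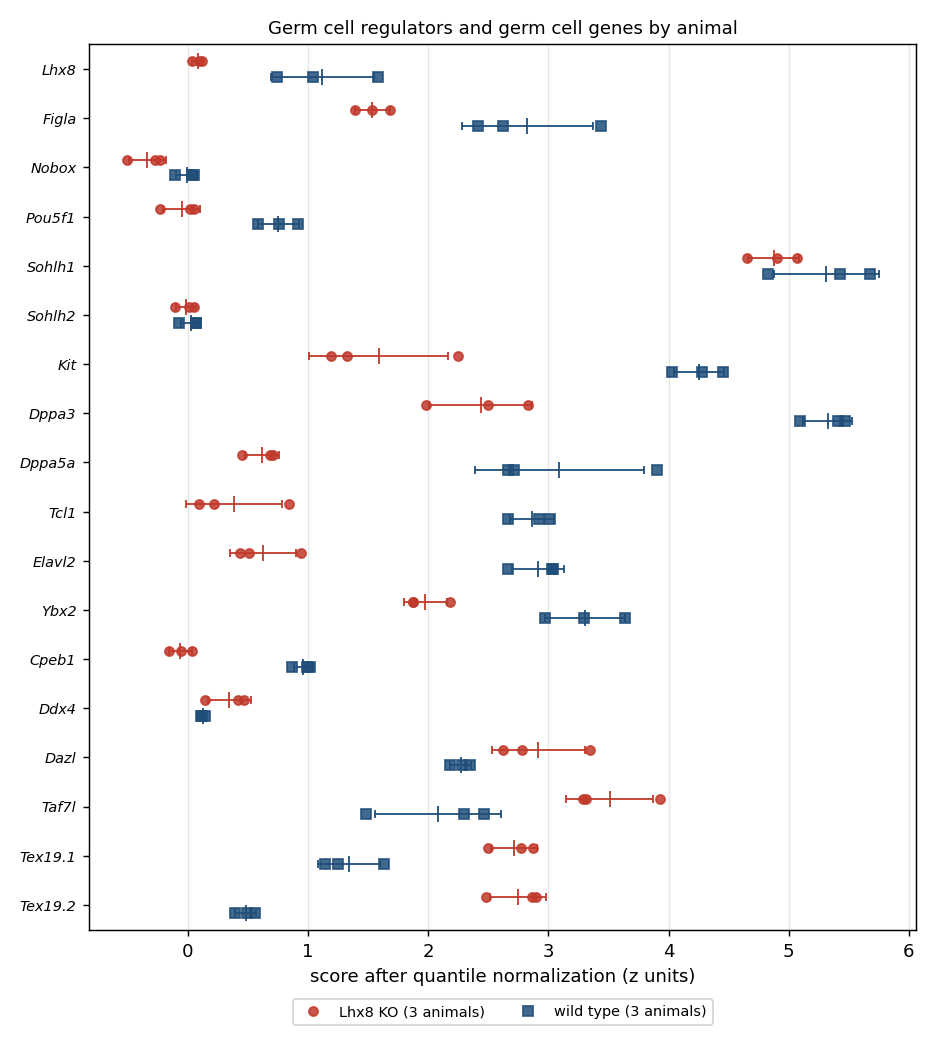
Scores after quantile normalization (z units) of germ cell regulators and germ cell genes; red circles are the 3 KO animals, blue squares the 3 wild-type animals, and bars show mean ± SD. Lhx8, Figla and Kit lie lower in KO and Tex19.1, Tex19.2 and Taf7l higher, while Sohlh1 and Sohlh2 overlap between genotypes. Sohlh2 lies near background in both.

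The largest rise was in a germ cell gene, and 2 more were among the 20 largest, while 17 of the 22 spermatogonial and male germ cell genes tested were not called. Tex19.2, one of a pair of mouse genes expressed in the gonads, had 2.48, 2.90 and 2.86 in KO, against 0.49, 0.39 and 0.56 in wild type (2.27 ± 0.14, limma adjusted p = 3.34e-05). Its paralog Tex19.1, which restrains retrotransposons in germ cells, had 2.50, 2.77 and 2.87 in KO, against 1.25, 1.14 and 1.63 in wild type (1.38 ± 0.16, adjusted p = 0.00053). Taf7l, a variant subunit of the basal transcription factor TFIID that sperm cells use, had 3.31, 3.29 and 3.93 in KO, against 2.30, 1.48 and 2.46 in wild type (1.43 ± 0.25, adjusted p = 0.00514). In each of the 3 genes every KO animal was above every wild-type animal, which was a condition for a place among the 20 largest rises. Usp26, an X-linked deubiquitinase of the testis, was the other rise (0.71 ± 0.17, adjusted p = 0.0213, lost without wild-type replicate 2 at 0.0824). Tdrd9, a transposon-silencing helicase, fell by 1.05 ± 0.15. In that list 4 rose and 1 fell (22.7% called, beside 15.3% of all genes), with a median of 0.20. In the meiotic list of 18 genes, Spo11, the nuclease that makes meiotic breaks (0.48 ± 0.11), and the cohesin subunit gene Stag3 (0.61 ± 0.17) rose, while Mnd1 (−0.94 ± 0.17) and Psmc3ip (−0.62 ± 0.18), which act together in strand exchange, fell. Leaving out wild-type replicate 2 ended the calls of Spo11 (adjusted p = 0.0874), Stag3 (0.139) and Psmc3ip (0.0578). With all animals, 22.2% of the meiotic list was called, beside 15.3% of all genes.

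Upstream sequences of the Tex19 paralogs are shown because these neighbouring genes on chromosome 11 rose together; strand, build and capitals are as above.
Tex19.2, chr11:121118678-121118927, minus strand: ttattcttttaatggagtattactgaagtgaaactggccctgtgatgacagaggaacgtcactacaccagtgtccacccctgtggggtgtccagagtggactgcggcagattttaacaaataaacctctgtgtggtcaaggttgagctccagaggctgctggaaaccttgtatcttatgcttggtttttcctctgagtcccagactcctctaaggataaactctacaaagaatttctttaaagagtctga
Tex19.1, chr11:121145893-121146142, plus strand: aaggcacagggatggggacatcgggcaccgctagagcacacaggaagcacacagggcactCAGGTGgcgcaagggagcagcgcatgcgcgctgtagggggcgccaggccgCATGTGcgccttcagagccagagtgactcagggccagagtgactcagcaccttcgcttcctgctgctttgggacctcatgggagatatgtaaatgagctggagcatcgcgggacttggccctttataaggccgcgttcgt
The stretch of Tex19.1 held 2 E-boxes and no homeodomain word, and that of Tex19.2 held neither, although its 300-base window, which runs past the start, held an E-box. Whether the probes of the paralogs also capture each other's RNA was not tested.

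Other large rises were in genes of stress, chromatin and metabolism. Gadd45g, a growth arrest and stress gene, had 3.62, 3.58 and 3.46 in KO, against 1.76, 1.47 and 1.31 in wild type (2.04 ± 0.14, limma adjusted p = 4.1e-05). H1f2, a somatic linker histone, had 4.35, 3.51 and 4.34 in KO, against 1.58, 2.81 and 2.10 in wild type (1.90 ± 0.30, adjusted p = 0.00312). Radx, an X-linked protein that binds single-stranded DNA at replication forks, had 0.90, 1.07 and 1.41 in KO and was below background in wild type, at −0.25, −0.22 and −0.33 (1.39 ± 0.13, bound 1.33, adjusted p = 0.00018). Radx was the 1 gene among the 20 largest rises with no signal above background in wild type, whereas 6 of the 20 largest falls had none in KO. Fabp3, a fatty acid binding protein (1.45 ± 0.23), Gng13, a G protein subunit (1.36 ± 0.22), Ier5l, an immediate early gene (1.31 ± 0.19), Cav1, the coat protein of caveolae (1.29 ± 0.24), Crip2, a LIM domain protein (1.17 ± 0.13), Tcea3, an elongation factor (1.13 ± 0.21), Cercam (1.08 ± 0.13) and Taf9b, another TFIID-related gene (1.05 ± 0.22), rose as well. The calls of Taf9b (adjusted p = 0.0505 without wild-type replicate 2) and Id1 (0.054 without KO replicate 1) were the 2 among these 20, apart from the mast cell genes below, that were lost on leaving out an animal. Tcea3 (0.36) and Taf9b (0.13) each had another probe that was not called.

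**Figure D4:**
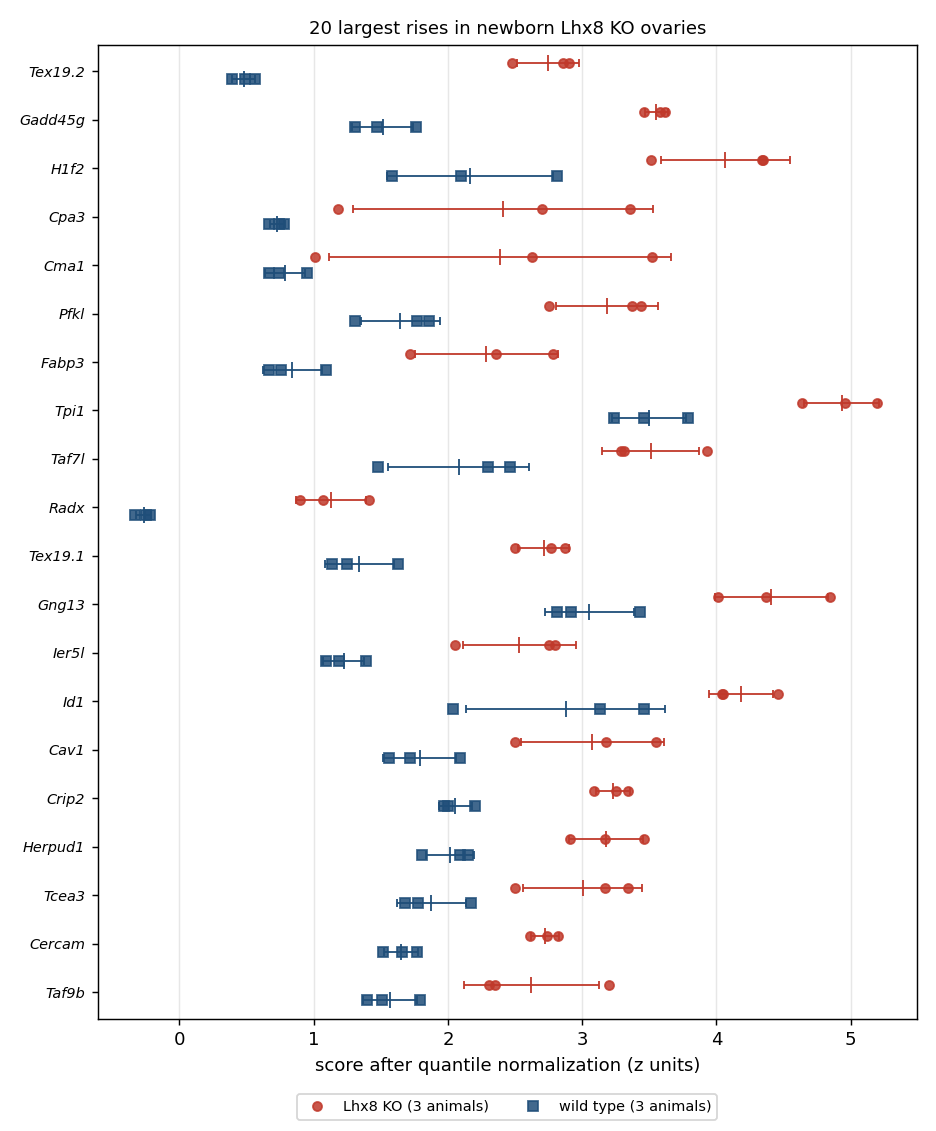
Scores after quantile normalization (z units) of the 20 genes with the largest rises, from Tex19.2 at the top to Taf9b at the bottom; red circles are the 3 KO animals, blue squares the 3 wild-type animals, and bars show mean ± SD. The genes were chosen among those in which every KO animal lies above every wild-type animal, so this separation is a condition of the choice. Cpa3 and Cma1 are the 2 genes in which the KO animals spread most.

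Some glycolysis genes rose and a few cholesterol synthesis genes fell, while most genes of both lists were not called. Pfkl, a subunit of the rate-limiting phosphofructokinase, had 3.44, 2.75 and 3.37 in KO, against 1.86, 1.77 and 1.31 in wild type (1.54 ± 0.20, limma adjusted p = 0.00117). Tpi1, triosephosphate isomerase, had 5.20, 4.64 and 4.96 in KO, against 3.79, 3.46 and 3.24 in wild type (1.44 ± 0.18, adjusted p = 0.000782), with 1.37 at another probe and 0.06, not called, at the last one. Ldha, which makes lactate, differed by 1.01 ± 0.27, and Gapdh by 0.59 ± 0.16. Of 22 glycolysis and pentose phosphate genes tested 7 rose, 1 fell and 14 were not called, which is 36.4% called beside 15.3% of all genes, and the median was 0.33. Rpia, of the pentose phosphate branch, was the fall (−0.63 ± 0.12). Leaving out wild-type replicate 2 or 3 left 2 rises in the list; without replicate 2 Ldha was at an adjusted p of 0.0983 and Gapdh at 0.0824, and the Ldha scores overlapped between genotypes. Fdps, which makes farnesyl diphosphate, had 1.80, 1.85 and 2.02 in KO, against 3.22, 3.30 and 2.90 in wild type (−1.25 ± 0.14, adjusted p = 0.000478). Sqle, the squalene epoxidase (−0.83 ± 0.18), and Mvd (−0.48 ± 0.10) were the other falls among 15 cholesterol genes, none of which rose. That is 20% called, near the 15.3% of all genes, and the median was −0.12. The Sqle call was lost without wild-type replicate 2 (adjusted p = 0.0501), and its other probe differed by −0.22.

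Of 21 genes in the endoplasmic reticulum stress list 3 rose and none fell, a share called (14.3%) near that of all genes (15.3%). Herpud1, which clears misfolded proteins from the reticulum, had 3.17, 3.46 and 2.91 in KO, against 2.15, 1.81 and 2.09 in wild type (1.17 ± 0.16, limma adjusted p = 0.00167). Ddit3, the stress transcription factor CHOP, had 1.25, 1.07 and 1.24 in KO, against 0.36, 0.39 and 0.48 in wild type (0.78 ± 0.11, adjusted p = 0.00175), and Ddit4, an inhibitor of mTOR, differed by 0.67 ± 0.13. The median of the list was 0.12. Translation factor genes moved in both directions, with 5 of 34 lower and 2 higher (20.6% called, beside 15.3% of all genes, median −0.15). Eif6 (−0.78 ± 0.12) and Eif2b1 (−0.69 ± 0.11) fell and Eif4a2 rose (0.87 ± 0.11), although the other 2 Eif4a2 probes (−0.11 and 0.60) were not called. Of 30 proteasome genes 3 fell and 1 rose (13.3% called, median −0.16), and of 32 splicing genes 6 fell and 2 rose (25.0% called, median −0.08), beside 15.3% of all genes. In fits without 1 animal the proteasome falls numbered 1 or 2. No splicing gene was called without KO replicate 2, and without wild-type replicate 1 none fell and 2 rose. Psmb3 (−0.59 ± 0.12) was the largest proteasome change and Snrpd3 (−0.67 ± 0.16), a core protein of spliceosomal particles, the largest splicing one. The Snrpd3 call was lost on the deposited values (adjusted p = 0.0576) and without KO replicate 2 (0.0522) or wild-type replicate 1 (0.0507) or 3 (0.0642). For 48 ribosomal protein genes the direction depended on the scaling: 1 rose and 3 fell after quantile normalization (median 0.00), but 16 rose and none fell on the values as deposited (median 0.55), and 15 rose and none fell after median scaling (median 0.50). Rps25 rose by 0.69 ± 0.12 in the first of these, where 8.33% of the ribosomal protein genes were called, beside 15.3% of all genes.

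Signalling between oocytes and their neighbours changed at single genes. In the NOTCH list of 17 genes, the ligand Jag2 had −0.23, −0.05 and −0.06 in KO, against 0.67, 0.95 and 0.78 in wild type (−0.91 ± 0.11, limma adjusted p = 0.000546). The target Hey1 had 0.67, 0.30 and 0.22 in KO, against 1.18, 1.37 and 1.33 in wild type (−0.90 ± 0.14, adjusted p = 0.00273). Psenen, of the protease that frees the NOTCH intracellular domain (−0.68 ± 0.16), was the other of 3 falls, and Mfng (0.54 ± 0.12) and Notch4 (0.42 ± 0.12) were the 2 rises. Of these 5 calls, those of Psenen (adjusted p = 0.0626), Mfng (0.0849) and Notch4 (0.131) were lost without wild-type replicate 2. The ligand Jag1 (−0.11 ± 0.06, adjusted p = 0.226), the receptor Notch2 (0.19 ± 0.09, adjusted p = 0.171) and the target Hey2 (−0.06 ± 0.07) were not called. All of them were near background in both genotypes, Jag1 and Hey2 above it on no KO array, so a change could be missed. Of 24 KIT, PI3K and mTOR genes, Kit, Pik3cd (−0.68 ± 0.09, bound −0.40) and Pik3cb (−0.46 ± 0.13) fell and none rose, and Pik3cb lost its call in several other settings, among them leaving out wild-type replicate 3 (adjusted p = 0.128). Among 28 TGF-beta superfamily genes the falls were Gdf9 and Bmp15, and the rises were Id1, a target of BMP signals (1.30 ± 0.30), the BMP receptor Acvr1 (0.47 ± 0.14) and Fstl1 (0.44 ± 0.13). The calls of Acvr1 (adjusted p = 0.128) and Fstl1 (0.106) were lost without wild-type replicate 2. Of 19 WNT genes Wnt6 rose (0.72 ± 0.17, lost without wild-type replicate 2 at 0.0711) and none fell. The shares called were 29.4% (NOTCH), 12.5% (KIT, PI3K and mTOR), 17.9% (TGF-beta) and 5.26% (WNT), beside 15.3% of all genes. Kitl, Dnmt3l and Stra8 had probes that did not pass the filter.

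Among imprinted and matrix genes the few that changed were higher in KO, and most were not called. Cdkn1c, a cell cycle inhibitor expressed from the maternal allele, had 5.98, 6.07 and 5.79 in KO, against 5.43, 4.85 and 5.08 in wild type (0.83 ± 0.15, limma adjusted p = 0.0066). Ndn (0.78 ± 0.15), Igf2 (0.61 ± 0.15) and Nnat (0.34 ± 0.09), expressed from the paternal allele, were the other rises among 17 imprinted genes, none of which fell (23.5% called, beside 15.3% of all genes), and their median was 0.26. The calls of Igf2 (adjusted p = 0.0787) and Nnat (0.087) were lost without wild-type replicate 2. Of 32 basement membrane and matrix genes 5 rose (Mmp14 0.63 ± 0.15, Col4a5 0.60 ± 0.11, Lamc1 0.56 ± 0.13, Col3a1 0.55 ± 0.17 and Bgn 0.50 ± 0.12) and none fell, with a median of 0.11 and a share called (15.6%) near that of all genes. Other probes of Col4a5 (−0.03), Col3a1 (−0.03) and Lamc1 (−0.32) were not called, and leaving out wild-type replicate 3 left a single rise. In the adhesion list of 19 genes (21.1% called, beside 15.3% of all genes) Gja4 fell and Cldn11 (0.87 ± 0.23), Ncam1 (0.61 ± 0.16) and Ctnna1 (0.53 ± 0.13) rose. None of these 3 kept its call without wild-type replicate 3, and Cdh1, which joins oocytes to each other and to their neighbours, was not called.

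Few markers of the other cells of the ovary were called. Of 16 granulosa cell markers none was called, with a median of 0.05, and the mean of their scores was 1.27 to 1.39 in KO arrays and 1.25 to 1.30 in wild-type arrays. Amhr2, the receptor for anti-Müllerian hormone, had 4.17, 4.27 and 4.13 in KO, against 3.99, 3.89 and 4.09 in wild type (0.20 ± 0.12, limma adjusted p = 0.273). Foxl2, the granulosa cell transcription factor, differed by 0.05 ± 0.08, but its probe was near background in both genotypes (means 0.02 in KO and −0.03 in wild type), where a change could be missed. Of 15 endothelial markers 1 rose (Sox17, 0.30 ± 0.09) with a median of 0.30. The Sox17 call was lost in 8 settings (adjusted p up to 0.167, without wild-type replicate 2 or 3), while 4 endothelial markers rose with the replicate block or without wild-type replicate 1 and 5 in the model of all 12 arrays. The mean of the list was 0.93 to 1.20 in KO and 0.55 to 0.95 in wild type. Pecam1, a junction protein of vessels, was not called (0.29 ± 0.16, adjusted p = 0.248). Stromal markers had 1 rise of 13 (Col3a1), Sertoli and Leydig markers 1 rise of 5 (Sox9, 0.59 ± 0.16), and surface epithelium, oviduct and adrenal markers no call of 7. Neither rise kept its call without wild-type replicate 2 (Col3a1 adjusted p = 0.157, Sox9 0.115). The mean of the stromal list was 1.53 to 1.82 in KO arrays and 1.41 to 1.53 in wild-type arrays. For the Sertoli and Leydig list it was 1.06 to 1.15 in KO and 0.70 to 0.84 in wild type. The haemoglobin gene Hba-a1 had 7.38, 6.09 and 6.15 in KO, against 6.15, 6.15 and 6.81 in wild type (0.17 ± 0.31, adjusted p = 0.734). Tfrc, the transferrin receptor, was the 1 rise among 6 erythroid markers (0.80 ± 0.13), while 4 of the 6 rose on the values as deposited. Of 19 complement and interferon genes C2 rose (0.75 ± 0.12) and Gbp2 fell (−0.70 ± 0.14). Beside 15.3% of all genes, 0% of the granulosa cell, 6.67% of the endothelial and 7.69% of the stromal markers were called. The share was 0% for surface epithelium, oviduct and adrenal markers, 20% for Sertoli and Leydig markers and 16.7% for erythroid markers. The 20% and 16.7% each rested on 1 called gene, and the complement and interferon share was below that of all genes.

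Mast cell genes varied between KO animals. Cpa3, a carboxypeptidase of mast cell granules, had 3.36, 2.70 and 1.18 in KO, against 0.67, 0.74 and 0.78 in wild type (1.69 ± 0.41, limma adjusted p = 0.0224). Cma1, a mast cell chymase, had 3.52, 2.63 and 1.01 in KO, against 0.95, 0.67 and 0.74 in wild type (1.6 ± 0.47, adjusted p = 0.0436). KO replicate 3 lay just above the wild-type animals in both genes. Hdc, which makes histamine (1.03 ± 0.31, with overlapping scores), and Gata2 (0.38 ± 0.11) also rose among the 10 markers tested, whereas Kit, which mast cells share with oocytes, was the 1 fall. Of the 10 markers 50% were called, beside 15.3% of all genes. The mean of the list was 1.10 to 2.17 in KO arrays and 0.94 to 1.07 in wild-type arrays. None of the 4 rises was called without wild-type replicate 2, at adjusted p of 0.0658 (Cpa3), 0.119 (Cma1), 0.157 (Hdc) and 0.17 (Gata2). Other probes of Cpa3 (1.51 and 0.52) and Hdc (0.34) were not called, while that of Cma1 was called higher (1.5). Laptm5 (0.88 ± 0.20) and Aif1 (0.29 ± 0.08) rose among 9 macrophage and leukocyte markers (22.2% called), and neither kept its call without wild-type replicate 3 (adjusted p = 0.0655 and 0.105). The part of these cells in the other changes was not tested.

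**Figure D5:**
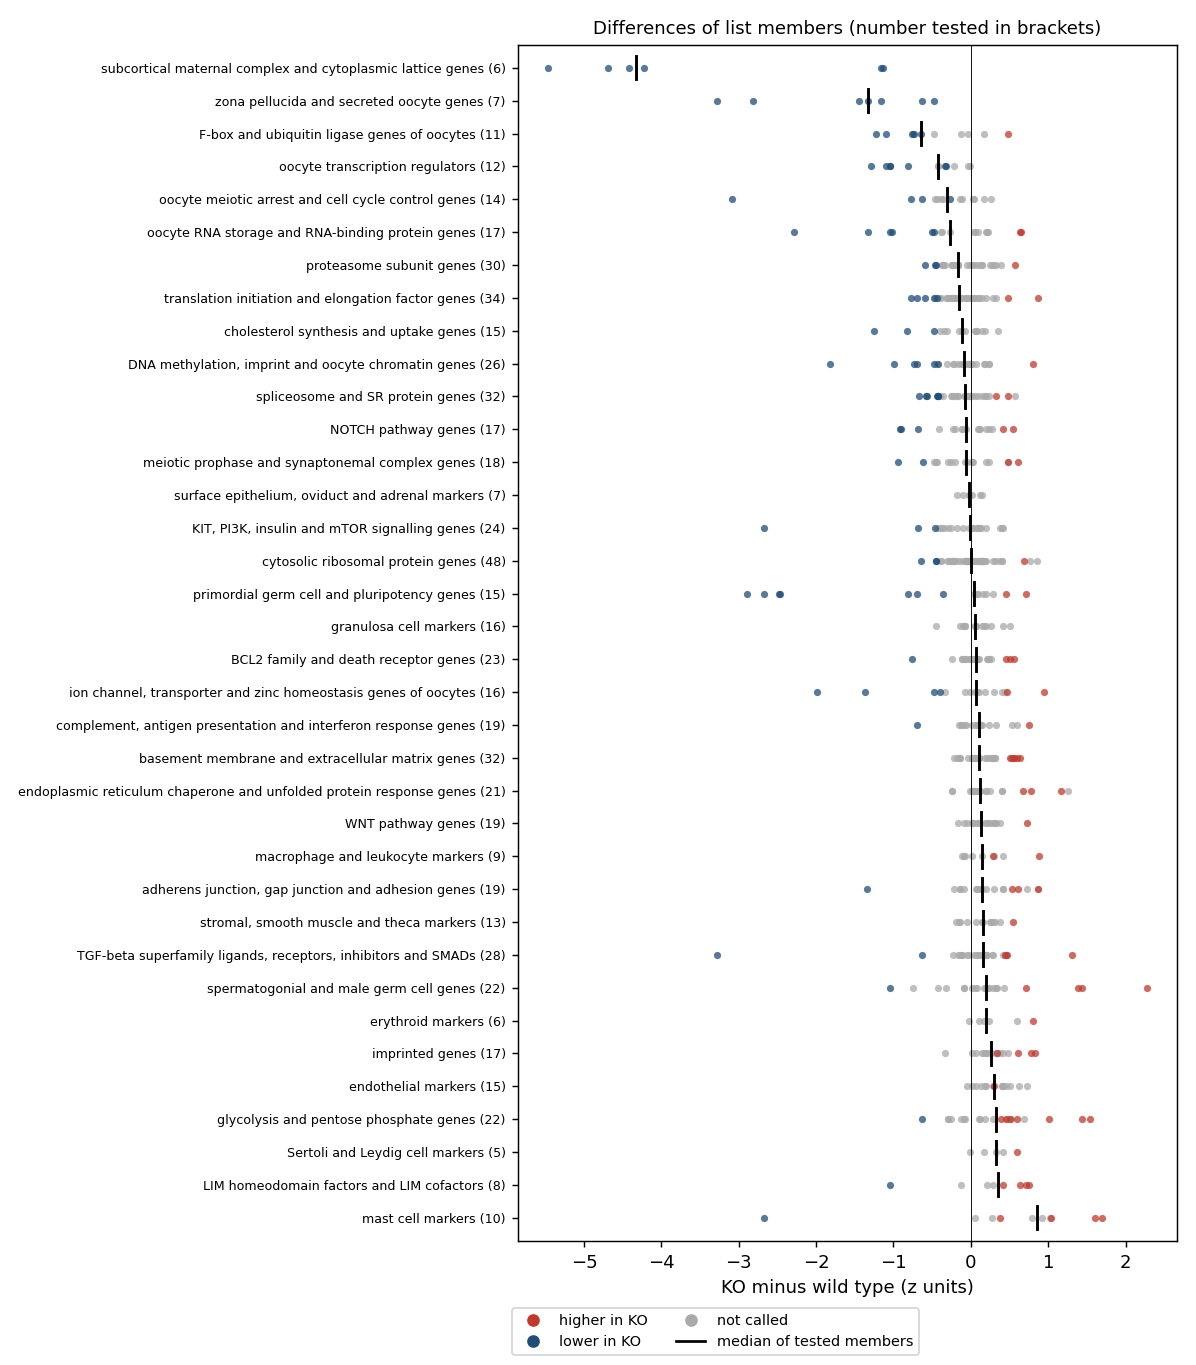
Difference between genotypes (KO minus wild type, z units) of every tested member of 36 gene lists, 1 row a list, with the number tested in brackets; red points rose in KO, blue points fell, grey points were not called, and the black bar is the median. The subcortical maternal complex list stands at the low end with a median of −4.32 (−0.09 over all 14 members without the filter) and the mast cell list at the high end with 0.86, while granulosa cell markers lie around 0.05 with no call.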

How the data were processed

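Total RNA of ovaries from newborn KO and wild-type mice, 3 animals each, was hybridised to Illumina BeadChips with 45281 probes, per the labels' protocols, and read with GenomeStudio (2011.1 in the submitters' processing notes). The values deposited by the authors are z scores, with mean 0 and SD 1 on every array when tested. The sources used here do not say whether logs were taken first, in which base, or how background was corrected. A further 48 columns of values have names that match no single sample and were not used.

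Sample titles gave the groups and replicate numbers. Scores of the 6 P0 arrays were quantile-normalized. Background on each array was the 95th percentile of 1523 probes of olfactory, vomeronasal and trace amine receptors. Of the probes, 34885 had 1 gene symbol in GEO's platform annotation, 18 had several and were not named, and 10378 had none; symbols were updated through the RefSeq table of GRCm38.p6, which held 99.7% of the gene IDs. Each of the 19057 genes was represented by its probe of highest mean, and the 9246 genes above background on at least 3 arrays were tested. Of the called genes, 479 had a second probe above background, and in 4 (Chd2, Dda1, H2bc21 and Setd4) another probe was called the opposite way. Where the lower genotype was not above background on any array, a bound takes the array's background level in place of a lower score. No level is compared between genes.

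The test was limma's moderated test (version 3.58.1, R 4.3.3) with a mean-variance trend, 2-sided, without covariates (4 residual degrees of freedom). Benjamini-Hochberg adjustment covered all 9246 genes and calls were made at 0.05; the fit was tested on simulated data. An exact permutation test of 3 against 3 animals cannot go below 0.1. Named genes were Lhx8, the 20 largest falls and rises without overlap, up to 5 called members of each list, the members of lists of up to 8 and a set of fixed genes; Amhr2 was taken from the marker row of the design. The 36 lists hold 983 genes, of which 618 were tested and 146 called, and they and the samples were chosen with earlier results of these data known. Lists are described by counts and medians only. Other scalings, filters, probe rules and models were tried, as was leaving out each animal. Promoter sequences are from RefSeq.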

Additional observations from a re-analysis of the deposited data

How the results depend on the processing

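Lhx8 remained lower in KO in all settings tried, with differences of −1.22 to −0.80. Differences of single named genes were counted over these settings, apart from the fits described below in which the filter was applied anew. Of these differences, 2019 kept direction and side of the threshold, 317 lost the call and 6 gained it. The 6 that reversed were Rpl35 (0.09 on the deposited values, 0.04 with median scaling), Rplp1 (0.57 and 0.52) and Rplp2 (0.25 and 0.20). Against 1414 called genes (603 higher, 811 lower in KO), the deposited values gave 1284 lower, median scaling 391 higher and 1661 lower, and 1 model of all 12 arrays of both ages 2611 (1329 higher, 1282 lower).

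Leaving out 1 animal, with genes and probes kept, gave 627 (without wild-type replicate 2) to 1197 called genes, 196 to 521 higher and 431 to 710 lower, of which 598 were shared with the full fit without wild-type replicate 2. Without KO replicate 2 there were 869 and without wild-type replicate 3 there were 817. Called list genes numbered 81 to 136 (146 in full) and named genes 93 to 127 (146 in full). With the filter applied anew to the 5 remaining arrays, an alternative added after seeing the data, these were 429 to 1164 called, 165 to 519 higher, 264 to 645 lower, 55 to 119 list genes and 70 to 116 named genes; a gene measured in wild type alone then fails the filter when a wild-type array is left out, so 4 subcortical maternal complex genes and 2 zona and secretion genes stayed in the test, all called lower. Fits without 1 animal leave 3 residual degrees of freedom.

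The replicate numbers did not pair the animals: same-numbered deviations correlated at −0.01, −0.05 and −0.02, and no KO animal correlated best with its own number. With the replicate block 1181 genes were called (475 higher, 706 lower).

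Genes near background limit the comparison: 193 called genes have a bound at most on 1 side, and genes below background in both genotypes were not tested.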

Other observations

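Genes known to respond to hypoxia through HIF1 rose in KO where they changed; this list was chosen after the values were seen, so its count is a description, and 15 of its 28 tested members are also in the glycolysis list. Of the 28, 12 rose and none fell (42.9% called, beside 15.3% of all genes), with a median of 0.43, beside 0.03 for all genes. Vegfa, the vessel growth factor, had 1.58, 1.95 and 1.88 in KO, against 1.04, 0.67 and 0.71 in wild type (1.0 ± 0.15, limma adjusted p = 0.00214). Angpt2, a ligand of vessel remodelling, had 1.48, 1.39 and 1.11 in KO, against 0.53, 0.25 and 0.24 in wild type (0.99 ± 0.14, adjusted p = 0.00145). Across fits that left out 1 animal, 8 to 12 rose.

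Of 331 X-linked genes tested 35 rose (10.6%) and 20 fell (6.04%), beside 6.52% and 8.77% of all genes, and their median was 0.09. On the other chromosomes rises made up 4.02% to 8.16% and falls 6.87% to 11.3% of the genes tested. No test of this difference was made.

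Among clock genes, a list also chosen after the values were seen, Dbp rose (0.99 ± 0.18, adjusted p = 0.0055) and Csnk1e fell (−0.75 ± 0.13, adjusted p = 0.00403), and the other 12 were not called. The share called (14.3%) was near that of all genes (15.3%). Among linker histones, a list chosen in the same way, H1f2 and H1f8 changed in opposite directions (1.90 ± 0.30 and −0.99 ± 0.10), while H1f5 (0.10 ± 0.09) and H1f10 (−0.13 ± 0.16) were not called.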
